A study of Mus musculus with 24 samples.

Results

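The genes described here encode the lens capsule and the wider extracellular matrix. They are 44 genes: the 6 chains of collagen IV, 6 laminin chains, 6 nidogens and heparan sulfate proteoglycans, 3 integrin receptors, 8 interstitial collagens, 2 other collagens, 5 glycoproteins and small proteoglycans, 3 crosslinking enzymes and 5 proteases and inhibitors. The list of symbols was chosen with earlier results of these data known. Members are the rows whose Entrez identifier maps to each symbol, and all 44 were found among the 24415 genes of the deposited count table.

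Gene expression was measured by RNA sequencing of total RNA in 24 libraries from lenses of C57BL/6 mice, 4 in each of 6 groups. LEGSKO+BSO mice carried the LEGSKO genotype and were treated with buthionine sulfoximine (BSO), an inhibitor of the first enzyme of glutathione synthesis. LEGSKO mice carried the same genotype with no treatment, and WT mice were untreated wild types. Cortical fiber cells and lens epithelia were taken from each of the 3 conditions, which the labels rank as severely deficient in glutathione, mildly deficient and control. LEGSKO is known as a line that lacks Gclc, the catalytic subunit of that first enzyme, in the lens. The labels name neither the allele nor the Cre promoter, and the sources used here do not give BSO dose, route, duration, age or sex. Whether libraries within a group are different animals is likewise not given, so p-values measure the spread between these libraries, which may be partly technical.

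The lens capsule is a thick basement membrane that surrounds the whole lens. Networks of collagen IV and laminin form its frame, nidogens and perlecan (the product of Hspg2) link them, and Sparc is a secreted collagen-binding glycoprotein that mouse lenses need to stay clear. The epithelium lies under the anterior capsule and secretes most of it, while fiber cells, which differentiate from epithelial cells, contact the posterior capsule through integrins.

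Libraries held 19.3 to 46.6 M counts. Values are counts per M (mega) of scaled total counts (CPM), scaled within a tissue. Only CPM per kb, fold changes between tissues and interactions use a scale over both tissues. Plain CPM of fibers and of epithelia are therefore not on one scale. Foxe3, a transcription factor of lens epithelium, averaged 7.06, 4.68 and 3.25 CPM in LEGSKO+BSO, LEGSKO and WT fibers, against 480, 241 and 244 CPM in the matching epithelia. Mip, the major fiber membrane protein, averaged 13179, 12929 and 16408 CPM in LEGSKO+BSO, LEGSKO and WT fibers, against 1533, 1138 and 2196 CPM in the epithelia, so fiber transcripts were present in the epithelial libraries too. Gclc averaged 74.8 ± 5.08, 75.6 ± 6.15 and 88.3 ± 31.4 CPM in LEGSKO+BSO, LEGSKO and WT fibers, and 85.6 ± 18.6, 58.2 ± 10.6 and 78.6 ± 12.9 CPM in the epithelia (SD, n = 4 each), with no difference between conditions that passed the test (adjusted p of 0.105 or more). In WT fibers Gclc was 135 CPM in library 1 and 70.4 to 75.5 CPM in the others. On the scale over both tissues Gclc was higher in WT fibers than in WT epithelia, by a log2 fold change of 1.29 ± 0.18 (SE). Counts cover whole genes, so they do not check the deletion of part of Gclc. WT fiber library 1 stood apart: crystallins took 50.1% of its counts, while the remaining 3 of its group held 27.6% to 29.6%, and the calls made in fibers are given with and without it.

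Promoter sequences are shown for the gene pairs that share a start region and for 2 members whose levels differed most between conditions in epithelia. Each is the RefSeq window (build GRCm38.p6) of 250 bases before to 50 bases after a transcript start, read 5′ to 3′ on the gene's strand. Capitals mark CCAAT boxes (CCAAT, or ATTGG on the other strand), GC boxes (GGGCGG or CCGCCC) and the core of the antioxidant response element (TGACNNNGC or GCNNNGTCA). A further motif, the AP-1 site TGANTCA, was searched on both strands. Col4a1 (chr8:11312777-11313076, minus strand) and Col4a2 (chr8:11312555-11312854, plus strand) are read in opposite directions from windows that share 78 bases, and their annotated gene bodies overlap by 85 bases. The Col4a4 window (chr1:82586800-82587099, minus strand) contains the annotated start of Col4a3, which is read the other way from position 82586921. Col1a2 (chr6:4505368-4505667) and the upstream window of Lamb3 (chr1:193301744-193302043) lie on the plus strand.
Col4a1: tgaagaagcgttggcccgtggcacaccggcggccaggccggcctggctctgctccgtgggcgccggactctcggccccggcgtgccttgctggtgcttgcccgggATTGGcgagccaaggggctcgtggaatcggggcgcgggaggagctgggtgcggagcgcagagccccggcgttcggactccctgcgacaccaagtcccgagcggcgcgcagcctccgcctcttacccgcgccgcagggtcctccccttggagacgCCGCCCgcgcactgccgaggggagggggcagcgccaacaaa
Col4a2: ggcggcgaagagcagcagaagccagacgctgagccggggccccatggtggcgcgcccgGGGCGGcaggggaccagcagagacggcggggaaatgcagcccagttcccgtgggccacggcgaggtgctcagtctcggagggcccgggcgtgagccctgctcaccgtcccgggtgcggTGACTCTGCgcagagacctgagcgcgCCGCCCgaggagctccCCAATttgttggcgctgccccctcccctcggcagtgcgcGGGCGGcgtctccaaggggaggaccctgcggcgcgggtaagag
Col4a4: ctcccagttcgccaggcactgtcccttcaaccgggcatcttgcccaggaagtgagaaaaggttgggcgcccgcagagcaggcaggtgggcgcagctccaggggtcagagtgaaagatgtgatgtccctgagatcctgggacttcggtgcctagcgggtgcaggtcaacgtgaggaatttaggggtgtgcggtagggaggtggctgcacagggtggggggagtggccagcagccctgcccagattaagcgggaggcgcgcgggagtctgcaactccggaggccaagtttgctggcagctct
Col1a2: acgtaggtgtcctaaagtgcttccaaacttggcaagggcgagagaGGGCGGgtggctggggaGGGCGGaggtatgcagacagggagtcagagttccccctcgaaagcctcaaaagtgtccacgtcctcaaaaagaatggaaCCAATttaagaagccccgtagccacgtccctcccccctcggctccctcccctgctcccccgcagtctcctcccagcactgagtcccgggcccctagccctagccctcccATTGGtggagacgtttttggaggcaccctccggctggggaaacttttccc
Lamb3: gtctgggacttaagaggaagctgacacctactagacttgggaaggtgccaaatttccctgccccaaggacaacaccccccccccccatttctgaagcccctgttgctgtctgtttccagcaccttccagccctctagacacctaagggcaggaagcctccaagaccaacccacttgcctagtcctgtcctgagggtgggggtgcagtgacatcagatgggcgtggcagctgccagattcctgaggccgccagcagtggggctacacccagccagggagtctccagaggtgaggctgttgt

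Such a window was listed for 30 members. Of these, GC boxes occurred in 22 (73.3%), against 35.7% of all 32851 promoters, and CCAAT boxes in 12 (40%), against 37.4%. The antioxidant response element core was found in 4 (13.3%, against 12.4% of all promoters) and the AP-1 site in 2 (6.67%, against 7.81%). The Col4a2 window held 3 GC boxes, 1 CCAAT box and 1 antioxidant response element core, Col4a1 held 1 CCAAT box and 1 GC box, Col1a2 held 2 of each, and the Col4a4 and Lamb3 windows held no match to the 4 motifs. Members were counted by gene, with a match in any of its windows, while the shares of all promoters count each window. The member shares and the shares of all promoters are therefore not like for like. A match describes the letters of the window only.

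The first comparison places the genes by tissue. Nearly every member was lower in fibers than in epithelia. In WT lenses 40 of the 41 members tested differed between the tissues, 3 higher and 37 lower in fibers, at an adjusted p below 0.05 (the quasi-likelihood test of edgeR, adjusted by the Benjamini-Hochberg method over all genes, as for every adjusted p below unless DESeq2 is named). Of all 15560 genes tested, 76.4% differed and 39.4% were lower in fibers. In LEGSKO lenses 40 members differed, 37 of them lower (75.8% and 39% of all genes), and in LEGSKO+BSO lenses all 41 tested differed, 38 of them lower (78.9% and 40.8% of all genes). The median log2 fold change of fibers over epithelia was -2.72 over the members in WT, against -0.09 over all genes, with -2.54 in LEGSKO and -2.53 in LEGSKO+BSO. Bulk RNA cannot tell fewer cells that express a gene from less of its RNA per cell. Col3a1, Dcn and Lum had too few counts to be tested in any comparison. Only 29 of the 41 members also passed the count filter within fibers. The rest passed through their epithelial counts, so their lower level in fibers was set in advance and is no test. They are included in the counts and medians above.

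The members together took 0.609% ± 0.0472, 0.571% ± 0.0878 and 0.646% ± 0.0903 of the counts in LEGSKO+BSO, LEGSKO and WT fibers, and 4.3% ± 0.47, 4.08% ± 0.402 and 4.45% ± 0.444 in the epithelia (SD, n = 4 each). Collagen IV made up the greater part of this in epithelia. Its 6 chains took 2.44%, 2.36% and 2.68% of the counts in LEGSKO+BSO, LEGSKO and WT epithelia, against 0.202%, 0.185% and 0.226% in the fibers. Col4a1 alone reached 1.48% ± 0.16 in WT epithelia.

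On a scale of CPM per kb of transcript, normalised over both tissues, Sparc was the most abundant member in each WT tissue, at 567 ± 116 in fibers and 1949 ± 128 in epithelia. In WT epithelia Col4a1 followed at 1535 ± 176, and only its highest value (1790) passed the lowest of Sparc (1766). Then came Col4a2 at 728 ± 159, Nid1 at 381 ± 43 and Col4a3 at 170 ± 18.3, none of which overlapped its neighbours in that order. The next 9 genes, from Timp2 (135 ± 6.4) down to Loxl2 (71.4 ± 5.09), formed a run in which each overlapped its neighbour. The order in WT fibers was different after Sparc: Nid1 stood at 266 ± 33.9, Col4a1 at 232 ± 48.8 and Itga6 at 207 ± 14.6, with overlapping ranges, and Timp3, Itgb1, Col4a2, Col4a3 and Timp2 followed between 118 and 81.9. At the low end of both tissues lay Col1a1, Col3a1, Col5a2, Col8a1, Lox, Dcn and Lum, each at a mean of 0.284 CPM per kb or less.

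**Figure D1:**
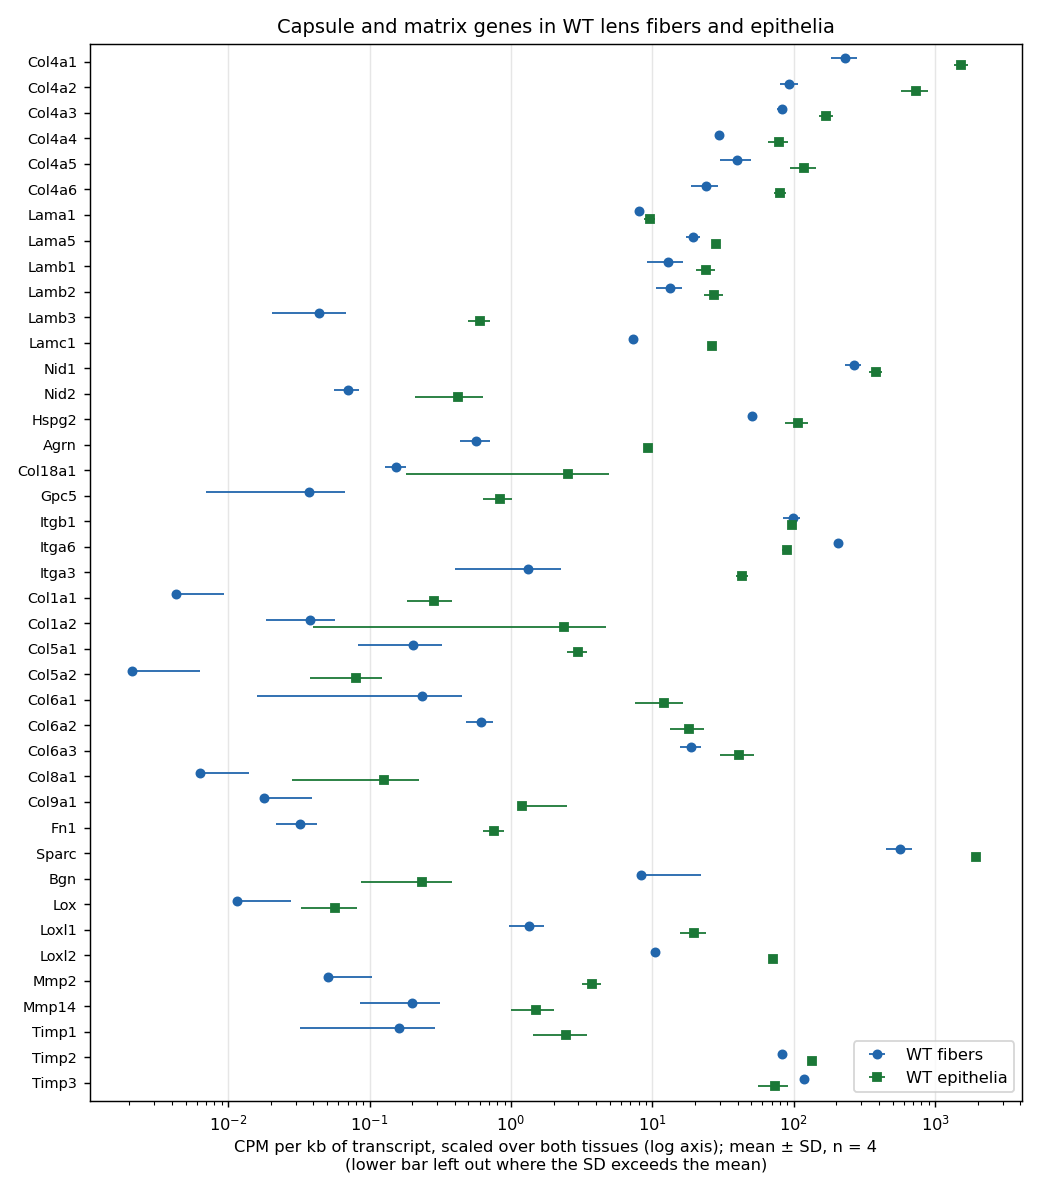
Level of each tested member in WT fibers (circles) and WT epithelia (squares), as CPM per kb of transcript on a log axis, mean with SD of 4 libraries. Most genes lie to the left in fibers, while Itga6, Timp3 and Bgn lie to the right and Itgb1 is level.

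Among the members called, the 4 highest fold changes of fibers over epithelia in WT were those of Bgn, Itga6, Timp3 and Lama1. Itga6, the laminin-binding integrin chain α6, was 207 ± 14.6 CPM per kb in WT fibers and 89.1 ± 7.15 in WT epithelia, a log2 fold change of 1.21 ± 0.09 (SE; 2.32-fold higher, adjusted p = 3.48e-12), with 1.28 in LEGSKO and 1.10 in LEGSKO+BSO lenses. Its partner Itgb1, the β1 chain, was 98 ± 13.5 in WT fibers and 96.5 ± 3.45 in WT epithelia (0.02, adjusted p = 0.823), and Itga3, the other laminin-binding α chain listed, was 1.33 ± 0.929 against 43.1 ± 4.15 (-4.98 ± 0.36, 31.6-fold lower, adjusted p = 3.21e-12). So among the 3 integrin genes, which were named after their values were seen, 1 was higher in fibers, 1 lower and 1 not called. Timp3, an inhibitor of metalloproteinases that binds to matrix, was 118 ± 5.45 in WT fibers and 73.6 ± 17.4 in WT epithelia (0.68 ± 0.11, adjusted p = 6.94e-06), with smaller fold changes of 0.51 in LEGSKO and 0.30 in LEGSKO+BSO. Timp3 lies in an intron of Syn3, and without strand information reads of overlapping genes cannot be told apart.

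Bgn, which encodes the small proteoglycan biglycan, was high in a single library. Scaled within each tissue, it stood at 47.3, 2.08, 3.3 and 1.73 CPM in the WT fiber libraries and 1.31, 1.09, 0.887 and 0.0868 CPM in the WT epithelial libraries. On the scale over both tissues the log2 fold change was 5.11 ± 0.88 (adjusted p = 1.19e-05). Without WT fiber library 1 it was 2.60 (adjusted p = 0.000106), close to the 2.46 of LEGSKO and 2.32 of LEGSKO+BSO lenses. Bgn therefore remained higher in fibers in all 3 conditions, and its level in WT fibers rests on that library. Lama1, the α1 chain of the embryonic-type laminin of the capsule, was 7.98 ± 0.324 CPM per kb in WT fibers and 9.57 ± 0.825 in WT epithelia (-0.26 ± 0.07, adjusted p = 0.00178), the smallest decrease among the members called.

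At the other end stood Col9a1, Mmp2, Col1a2 and Col1a1. They had 4, 12, 14 and 2 counts over the 4 WT fiber libraries, against 606, 1499, 1627 and 222 in WT epithelia. All 4 genes passed the count filter through epithelia only, so their direction was set in advance. With so few fiber counts the ratio is given with an exact 95% interval for counting error only: Col9a1, a cartilage and vitreous collagen chain, was 84 times lower in fibers (32.6 to 309), Mmp2, gelatinase A, 69.2 times (39.5 to 134), Col1a2 64.4 times (38.3 to 118) and Col1a1 61.5 times (16.8 to 511). Dcn and Lum had 0 counts in all 12 fiber libraries. In epithelia Col9a1 and Col18a1, which were named after their values were seen, followed the markers of ciliary body and vitreous. These 5 markers summed to 14.1, 102, 26.2 and 13.2 CPM in LEGSKO+BSO epithelia, 13.6, 45.6, 18.3 and 7.64 CPM in LEGSKO epithelia and 42.6, 10.1, 54 and 13.8 in WT epithelia, and none of them was at 0. Col9a1 stood at 3.53, 21.7, 1.36 and 1.33 CPM in LEGSKO+BSO epithelia, 1.1, 8.77, 1.9 and 1.44 CPM in LEGSKO epithelia and 9.49, 1.09, 15.8 and 0.608 in WT epithelia, highest in the same 4 libraries. Col18a1 was at 10.1, 69.4, 5.81 and 5.32, at 4.19, 32.2, 3.23 and 3.52, and at 35.8, 4.49, 39.7 and 3.82 CPM in LEGSKO+BSO, LEGSKO and WT epithelia. The part of those markers in the levels was not tested.

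Capsule genes proper were spread over a wide span of tissue differences. The 6 collagen IV chains were all lower in WT fibers, from -1.04 ± 0.11 for Col4a3 (2.06-fold) and -1.42 for Col4a4 through -1.56 for Col4a5 and -1.74 for Col4a6 to -2.72 ± 0.14 for Col4a1 (6.61-fold) and -2.97 ± 0.15 for Col4a2 (7.85-fold). The main chains α1 and α2 therefore differed more between tissues than the 4 minor chains. All 6 laminin chains were lower in fibers, from Lama1 to Lamb3 (-3.71 ± 0.38, 13.1-fold), with Lama5 at -0.53, Lamb1 at -0.91, Lamb2 at -1.02 and Lamc1 at -1.86. Among the linking molecules Nid1 was lower by 1.43-fold (-0.52) and Hspg2 by 2.11-fold (-1.08), against 16.1-fold for Agrn (-4.01), the heparan sulfate proteoglycan agrin, and 20.5-fold for the glypican Gpc5 (-4.36). The 7 interstitial collagens tested had a median of -4.89, the 3 crosslinking lysyl oxidases -2.77, and Sparc was -1.78 ± 0.13 (3.44-fold lower).

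The remaining members were lower in WT fibers as well; they are named to account for all 44, outside the rule for named genes. Log2 fold changes of fibers over epithelia were -2.59 for Nid2 and -4.00 ± 1.03 for Col18a1, the source of endostatin. Among collagens they were -3.93 for Col5a1, -4.86 for Col5a2, -5.61 for Col6a1, -4.89 for Col6a2 and -4.33 for Col8a1, but -1.12 for Col6a3, which was thus nearer to its epithelial level than the other collagen VI chains. Fn1, which encodes fibronectin, was at -4.56. The crosslinking enzymes Lox, Loxl1 and Loxl2 were at -2.52 ± 0.87, -3.90 and -2.77. Mmp14, a membrane-bound metalloproteinase, was at -3.00, its inhibitor Timp2 at -0.72 and Timp1 at -4.02 ± 0.65, so the metalloproteinase inhibitors ranged from lower to higher in fibers.

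Within a library the chain ratios separated the tissues. Col4a1 to Col4a3, per kb, was 3.08 ± 0.234, 3 ± 0.243 and 2.8 ± 0.452 in LEGSKO+BSO, LEGSKO and WT fibers, against 8.85 ± 0.378, 8.73 ± 0.431 and 9.05 ± 0.883 in the epithelia (SD, n = 4 each). The 12 fiber libraries did not overlap the 12 epithelial libraries. Col4a1 to Col4a2 stayed closer to constant, at 2.37 ± 0.0672, 2.52 ± 0.0975 and 2.49 ± 0.155 in LEGSKO+BSO, LEGSKO and WT fibers and at 2.31 ± 0.052, 2.12 ± 0.0484 and 2.14 ± 0.189 in the epithelia. Collagen IV protomers of the main network are known to hold α1 and α2 chains at 2 to 1. That is a ratio of proteins, which RNA does not measure. Col4a3 to Col4a4, partners in the α3α4α5 network, was 2.51, 2.64 and 2.82 in LEGSKO+BSO, LEGSKO and WT fibers. In the matching epithelia that ratio was 2.3, 2.27 and 2.19. With the union of annotated exons as length in place of the longest coding transcript the Col4a1 to Col4a2 ratio ranged from 1.92 in LEGSKO epithelia to 2.3 in LEGSKO fibers, so its absolute value depends on the length used. Lamc1 to Lama1 was 0.924, 0.845 and 0.919 in LEGSKO+BSO, LEGSKO and WT fibers, and 2.49, 2.73 and 2.8 in the epithelia.

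**Figure D2:**
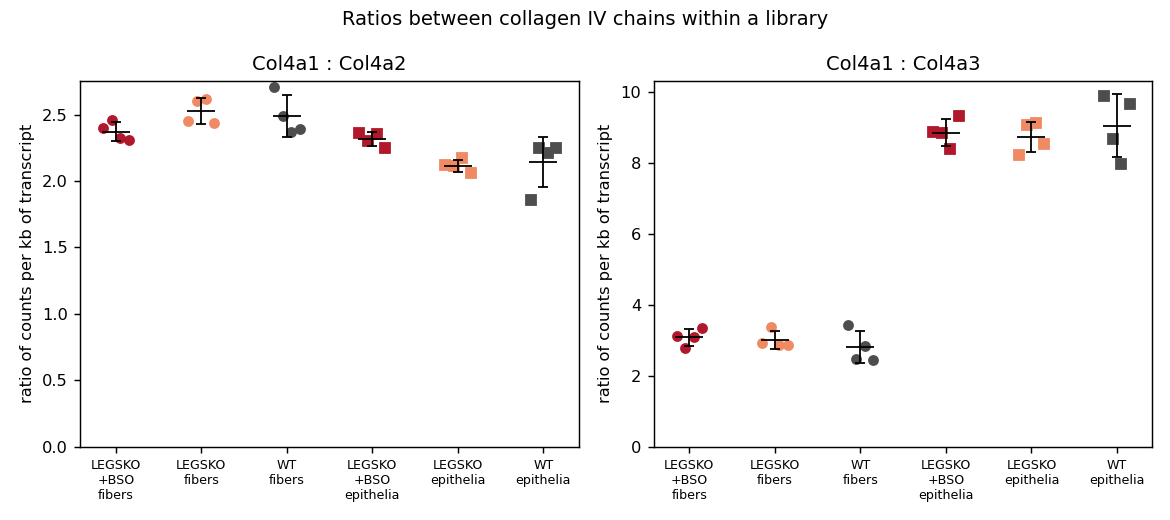
Ratio of Col4a1 to Col4a2 (left) and of Col4a1 to Col4a3 (right) in counts per kb of transcript, one point per library, with the mean and SD of 4. Over single libraries the second ratio lies between 2.45 and 3.42 in fibers and between 7.98 and 9.88 in epithelia. The first lies between 2.31 and 2.71 in fibers and between 1.86 and 2.36 in epithelia.

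The conditions were compared within each tissue. Both comparisons with WT share the 4 WT libraries of that tissue, so their values stand side by side and are not independent. In epithelia few members passed the test. Of 41 tested, 2 differed in LEGSKO+BSO epithelia against WT (1.17% of all 15089 genes did) and 2 in LEGSKO epithelia against WT (0.842%), and in both comparisons these were Lamb3 and Col1a2. Between LEGSKO+BSO and LEGSKO epithelia 1 member differed, Gpc5 (0.722% of all genes). The median log2 fold change over the members was 0.02 in LEGSKO+BSO, with 21 above and 20 below 0, and -0.09 in LEGSKO, with 11 above and 30 below, against -0.01 over all genes in both.

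Lamb3, which encodes the β3 chain of laminin-332, the laminin of epithelial anchoring, was higher in both LEGSKO conditions. It stood at 10.3, 7.54, 9.85 and 9.97 CPM in LEGSKO+BSO epithelia, 13.2, 12.1, 14.3 and 13.1 CPM in LEGSKO epithelia and 3.29, 4.64, 4.43 and 5.08 CPM in WT epithelia. The 3 groups did not overlap, with LEGSKO highest and WT lowest. Over WT the log2 fold change was 1.11 ± 0.14 in LEGSKO+BSO (SE; 2.16-fold, adjusted p = 0.00199) and 1.59 ± 0.14 in LEGSKO (3.02-fold, adjusted p = 8.72e-05), and the call held with each single library left out. Between LEGSKO+BSO and LEGSKO it was -0.48 ± 0.13 (adjusted p = 0.0999 by edgeR and 0.0289 by DESeq2). Lama3, which encodes a laminin α chain and is not a member, averaged 444 ± 33.3, 393 ± 52.4 and 441 ± 76.2 CPM in LEGSKO+BSO, LEGSKO and WT epithelia (SD, n = 4 each), with adjusted p of 0.553 or more against WT by edgeR. On the scale per kb Lamb3 was a minor laminin chain of these epithelia, at 1.3, 1.85 and 0.606 CPM per kb over both tissues in LEGSKO+BSO, LEGSKO and WT, against 26.6 for Lamc1 in WT.

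Col1a2, the α2 chain of collagen I, was also higher. It stood at 92.6, 54.2, 99.6 and 97.6 CPM in LEGSKO+BSO epithelia, 82, 119, 137 and 97.8 CPM in LEGSKO epithelia and 45.2, 4.29, 18.5 and 7.25 CPM in WT epithelia. All 8 LEGSKO+BSO and LEGSKO libraries were above all 4 WT libraries, which themselves spread from 4.29 to 45.2 CPM. The log2 fold change over WT was 2.20 ± 0.48 in LEGSKO+BSO (4.59-fold, adjusted p = 0.043) and 2.54 ± 0.48 in LEGSKO (5.81-fold, adjusted p = 0.0237). The LEGSKO+BSO call was lost without LEGSKO+BSO library 1, 3 or 4 or WT library 2, 3 or 4 (highest adjusted p = 0.116), and the LEGSKO call without LEGSKO library 2, 3 or 4 or WT library 2, 3 or 4 (highest adjusted p = 0.0783). With 1 library left out the log2 fold change ranged over 1.87 to 3.09 in LEGSKO+BSO and 2.21 to 3.42 in LEGSKO. Leaving out WT library 1, the highest of its group, gave 3.09 in LEGSKO+BSO (adjusted p = 0.00124) and 3.42 in LEGSKO (adjusted p = 0.000469). Without the 4 libraries high in ciliary body and vitreous markers, an alternative chosen after seeing the data, it was 4.06 in LEGSKO+BSO (adjusted p = 8.29e-06) and 4.18 in LEGSKO (adjusted p = 6.30e-06), and Lamb3 was 1.06 and 1.47 (adjusted p = 0.00439 and 0.000917). Those 4 were LEGSKO+BSO library 2, LEGSKO library 2 and WT libraries 1 and 3. The WT libraries left out were the highest of WT in Col1a2, so only WT libraries 2 and 4 remained, at 4.29 and 7.25 CPM.

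Its partner chain did not move with it. Col1a1 stood at 0.751, 0.956, 0.808 and 1.56 CPM in LEGSKO+BSO epithelia, 1.8, 1.22, 4.84 and 1.52 CPM in LEGSKO epithelia and 2.32, 1.43, 3.55 and 2.65 in WT epithelia (-1.27 in LEGSKO+BSO against WT, adjusted p = 0.17). Collagen I is known as a protein trimer with more α1 than α2 chains, and RNA does not measure protein. Per kb over both tissues Col1a2 RNA averaged 10.8, 13.9 and 2.37 in LEGSKO+BSO, LEGSKO and WT epithelia. Col1a1 RNA averaged 0.116, 0.269 and 0.284. Col3a1, the collagen that accompanies collagen I in connective tissue, had 2, 31 and 5 counts over the 4 libraries of each group. Col1a1 and Col3a1 were named after their values were seen.

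Against WT, the summed markers of corneal and conjunctival epithelium were higher in both LEGSKO conditions, as were Lamb3 and Col1a2. The sum averaged highest in LEGSKO+BSO, while Lamb3, Col1a2, Krt15 and Krt19 averaged highest in LEGSKO. Among WT epithelia, library 1 had the lowest sum (845 CPM), the lowest Lamb3 (3.29 CPM) and the highest Col1a2 (45.2 CPM). The 8 markers summed to 2951 to 4058, 2258 to 3192 and 845 to 2094 CPM in LEGSKO+BSO, LEGSKO and WT epithelia, most of it Aldh3a1, a corneal crystallin that is also on the stroma list (3176, 2452 and 1525 CPM). Of the 4 tested, 3 were higher in LEGSKO+BSO than in WT (Krt15 by 1.14, Krt19 by 0.56 and Aldh3a1 by 1.06 on the log2 scale, adjusted p = 0.00852, 0.0421 and 0.0436) and 2 in LEGSKO (Krt15 by 1.35 and Krt19 by 0.73, adjusted p = 0.00364 and 0.0101). The defining keratins of those epithelia were near 0, with Krt12 at no more than 0.793, Krt5 at no more than 0.368 and Krt14 at no more than 0.564 CPM in any epithelial library. The stroma list of 12 genes summed to 3271 to 4497, 2524 to 3643 and 1196 to 2567 CPM, with its defining gene Kera at 0 in every library. The part of either list in the Lamb3 and Col1a2 results was not tested.

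Gpc5, a glypican bound to the cell surface, was lower in LEGSKO+BSO than in LEGSKO epithelia. It stood at 3.12, 3.22, 2.83 and 2.75 CPM in LEGSKO+BSO epithelia, 4.7, 7.01, 6.74 and 4.56 CPM in LEGSKO epithelia and 4.7, 3.06, 2.83 and 3.39 in WT epithelia. All LEGSKO+BSO libraries lay below all LEGSKO libraries, and both overlapped the WT range. The log2 fold change was -0.95 ± 0.20 (1.93-fold lower, adjusted p = 0.0467), and the call was lost without any 1 of the 4 LEGSKO libraries or of LEGSKO+BSO libraries 1, 3 and 4 (highest adjusted p = 0.127, log2 -1.03 to -0.84 over all 8 runs). Without the 4 libraries high in ciliary body and vitreous markers it was -0.86 (adjusted p = 0.0526). Gpc5 overlaps the annotated gene 4930505G20Rik.

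**Figure D3:**
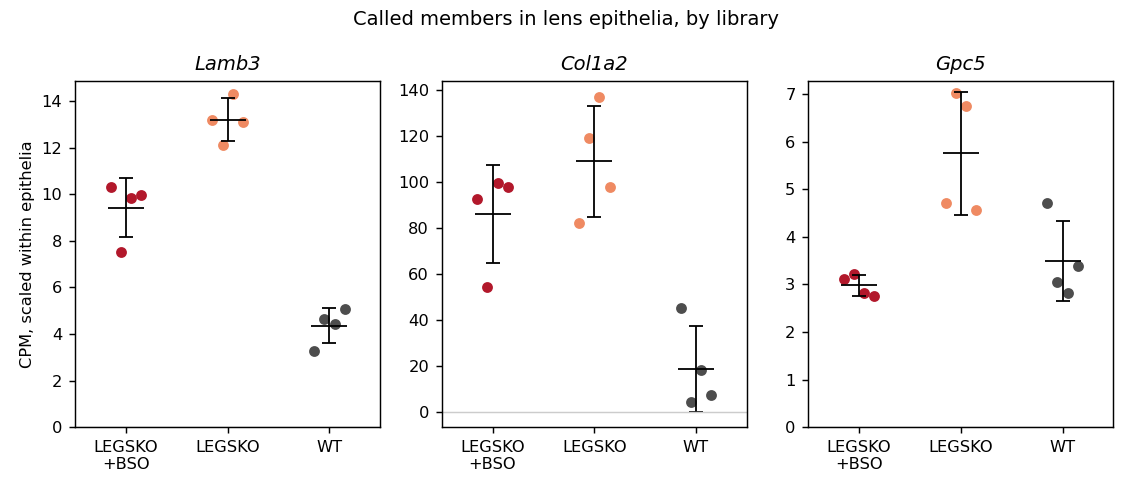
Lamb3, Col1a2 and Gpc5 in CPM scaled within epithelia, one point per library, with the mean and SD of 4 for LEGSKO+BSO, LEGSKO and WT. The WT points lie lowest for Lamb3 and Col1a2, and for Gpc5 all LEGSKO+BSO points lie below all LEGSKO points, with WT points overlapping both.

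No collagen IV chain was called in epithelia by edgeR or DESeq2. Col4a1 stood at 12933, 12441, 12726 and 15637 CPM in LEGSKO+BSO epithelia, 11685, 15015, 12183 and 12803 CPM in LEGSKO epithelia and 17662, 14555, 14227 and 13669 in WT epithelia (-0.16 and -0.22 for LEGSKO+BSO and LEGSKO over WT, adjusted p = 0.512 and 0.377). Col4a2 stood at 5336, 5279, 5289 and 6783, at 5370, 6945, 5462 and 6069, and at 9275, 6321, 6285 and 5928 CPM in LEGSKO+BSO, LEGSKO and WT epithelia (-0.29 and -0.22). For both genes the groups overlapped and WT library 1 was highest.

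Of the minor chains, Col4a3 was at 1889, 1820, 1960 and 2170 CPM in LEGSKO+BSO epithelia, 1837, 2143, 1728 and 1943 CPM in LEGSKO epithelia and 2312, 2168, 2307 and 1832 in WT epithelia. Col4a4 was at 955, 956, 983 and 1142, at 981, 1146, 832 and 1040, and at 1399, 1163, 1213 and 917 CPM in LEGSKO+BSO, LEGSKO and WT epithelia. The ranges of these chains, partners in the α3α4α5 network, overlapped between all groups. Col4a5 was at 1074, 1059, 1071 and 1182, at 978, 1166, 1009 and 1005, and at 1508, 999, 1041 and 1015 CPM, and Col4a6 at 809, 763, 824 and 920, at 740, 853, 717 and 732, and at 902, 767, 751 and 721 CPM in LEGSKO+BSO, LEGSKO and WT epithelia. Over the 6 chains the log2 fold changes ran from -0.29 to 0.08 in LEGSKO+BSO and from -0.23 to -0.05 in LEGSKO.

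Among the laminins of the capsule, Lama1 stood at 154, 149, 160 and 164 CPM in LEGSKO+BSO epithelia, 130, 134, 131 and 122 CPM in LEGSKO epithelia and 120, 146, 133 and 141 in WT epithelia. Every LEGSKO+BSO library was above every library of the other groups, but the differences missed the threshold by edgeR (0.22 ± 0.07 over WT, adjusted p = 0.129, and 0.28 ± 0.07 over LEGSKO, adjusted p = 0.0687). DESeq2 called both (adjusted p = 0.0427 over WT and 0.00385 over LEGSKO). By edgeR Lama1 was also called over LEGSKO without those same 4 libraries (0.34, adjusted p = 0.0405) and without LEGSKO+BSO library 2 (0.30, adjusted p = 0.0445). Lamb1 was at 181, 177, 189 and 204, at 159, 180, 168 and 151, and at 254, 199, 187 and 182 CPM in LEGSKO+BSO, LEGSKO and WT epithelia (LEGSKO over WT -0.32 ± 0.10, adjusted p = 0.134, with no overlap). Lamc1 was at 297, 299, 305 and 347, at 262, 311, 268 and 288, and at 318, 309, 300 and 272 CPM, with overlapping groups.

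Nid1 stood at 3869, 3382, 3629 and 3753 CPM in LEGSKO+BSO epithelia, 3170, 3705, 3499 and 3075 CPM in LEGSKO epithelia and 3992, 3449, 3251 and 3061 in WT epithelia. Hspg2 was at 1868, 1919, 1956 and 2083, at 1771, 2198, 1726 and 2022, and at 2776, 2264, 2160 and 1755 CPM in LEGSKO+BSO, LEGSKO and WT epithelia. Neither linker separated the groups. Agrn stood at 85.8, 87.5, 78.2 and 97.3, at 77.5, 81, 71.5 and 88.4, and at 107, 98.1, 92 and 104 CPM (LEGSKO over WT -0.33 ± 0.08, adjusted p = 0.0718, with no overlap). Sparc stood at 6439, 6416, 6300 and 7713 CPM in LEGSKO+BSO epithelia, 5684, 6737, 6888 and 6368 CPM in LEGSKO epithelia and 7056, 5987, 6770 and 6717 in WT epithelia (0.02 and -0.05 over WT), and Itgb1 at 555, 505, 531 and 554, at 472, 553, 528 and 416, and at 535, 558, 557 and 528 CPM. Both overlapped between all groups. Other members without a call by edgeR are described here because some of their groups did not overlap, another tool called them or a fold change was large, and they were named after their values were seen. Col6a1 stood at 96.7, 108, 87.7 and 135 CPM in LEGSKO+BSO epithelia, 107, 118, 119 and 149 CPM in LEGSKO epithelia and 42, 64.5, 105 and 78.8 in WT epithelia (LEGSKO over WT 0.76 ± 0.21, adjusted p = 0.102). Mmp2 stood at 25.9, 19.3, 22.5 and 31, at 21.8, 28.2, 35.3 and 23, and at 17.9, 16.4, 13.8 and 20.5 CPM in LEGSKO+BSO, LEGSKO and WT epithelia (LEGSKO over WT 0.66 ± 0.17, adjusted p = 0.0871). In both genes every LEGSKO library was above every WT library. Fn1 stood at 25.4, 6.74, 13.9 and 9.86, at 8.06, 6.56, 8.69 and 8.36, and at 11.2, 10.3, 7.6 and 8.47 CPM, and Timp1 at 5.03, 3.02, 3.99 and 7.96, at 1.8, 1.71, 2.8 and 3.36, and at 4.7, 2.27, 1.86 and 3.91 CPM (LEGSKO+BSO over LEGSKO 0.82 and 1.05, adjusted p = 0.16 and 0.134). Their groups overlapped, and Timp1 lies within Syn1.

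Mmp14 stood at 5.52, 6.09, 3.94 and 5.72 CPM in LEGSKO+BSO epithelia, 4.46, 4.31, 4.46 and 4.44 CPM in LEGSKO epithelia and 11, 5.72, 6 and 6.3 in WT epithelia (LEGSKO over WT -0.71 ± 0.21, adjusted p = 0.121). All LEGSKO libraries lay below all WT libraries. Col6a3 stood at 574, 604, 617 and 507, at 490, 406, 402 and 320, and at 856, 530, 594 and 473 CPM in LEGSKO+BSO, LEGSKO and WT epithelia, and Itga6 at 614, 611, 682 and 582, at 558, 519, 573 and 442, and at 518, 564, 620 and 570 CPM. In both genes all LEGSKO+BSO libraries lay above all LEGSKO libraries (0.51 and 0.25, adjusted p = 0.125 and 0.151). Lamb2 for LEGSKO+BSO over WT (0.28, adjusted p = 0.205) and Timp3 for LEGSKO+BSO over LEGSKO (0.21, adjusted p = 0.387) also had groups that did not overlap.

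DESeq2 on the same genes called 580, 463 and 680 of all 15089 for LEGSKO+BSO over WT, LEGSKO over WT and LEGSKO+BSO over LEGSKO epithelia. Of the 41 members it called 3, 7 and 5 in that order. Beside Lamb3 and Col1a2 the first were joined by Lama1, and the second by Agrn, Lamb1, Mmp14, Mmp2 and Gpc5 (adjusted p = 0.00941, 0.0387, 0.0351, 0.00983 and 0.0327). For LEGSKO+BSO over LEGSKO they were Gpc5, Lamb3, Lama1, Itga6 and Timp1 (adjusted p = 0.00157, 0.0289, 0.00385, 0.0489 and 0.0426).

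In fibers 29 members had enough counts to be tested, and the 15 left out were 6 collagens (Col1a1, Col1a2, Col3a1, Col5a2, Col8a1 and Col9a1), Dcn, Lum, Fn1, Lox, Mmp2, Mmp14, Timp1, Nid2 and Gpc5. Between LEGSKO+BSO and WT fibers 4 of 29 differed (5.52% of all 13436 genes did): Sparc, Col4a3 and Itgb1 were lower and Lamb3 was higher. Between LEGSKO and WT fibers 1 differed, Col4a3, which was lower (1.64% of all genes). Without WT library 1 the counts were 4 for LEGSKO+BSO (1075 of all 13615 genes) and 4 for LEGSKO (591 of all 13615). The latter were Col4a3 and Hspg2, with Lamb2 and Timp2, named after their values were seen, all lower. For LEGSKO the calls over all genes thus rose too, from 220 of 13436. Without LEGSKO library 2, 3 or 4 or WT library 2 or 4 the count of members for LEGSKO was 0 (61 to 125 of all genes). Between LEGSKO+BSO and LEGSKO fibers 0 members were called by edgeR (0.0298% of all genes) and 0 by DESeq2 (80 of all 13436 genes). By edgeR 3 of 29 members had an unadjusted p under 0.05, against 1412 of all 13436 genes. The median log2 fold change over WT was -0.14 in LEGSKO+BSO and -0.22 in LEGSKO, with 23 of 29 members below 0 in each, against -0.01 over all genes.

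Sparc stood at 559, 607, 405 and 563 CPM in LEGSKO+BSO fibers, 693, 662, 706 and 597 CPM in LEGSKO fibers and 1128, 920, 741 and 748 CPM in WT fibers. The lowest WT library was above the highest LEGSKO library, and LEGSKO+BSO was lower still in 3 of 4 libraries. Over WT the log2 fold change was -0.73 ± 0.14 in LEGSKO+BSO (1.66-fold lower, adjusted p = 0.00965) and -0.41 ± 0.14 in LEGSKO (adjusted p = 0.166), and between LEGSKO+BSO and LEGSKO it was -0.32 ± 0.14 (adjusted p = 0.438). The LEGSKO+BSO call held with each library left out, with -0.59 (adjusted p = 0.00393) without WT library 1. The same contrast in epithelia gave 0.02, and the difference between the tissues, fibers minus epithelia, was -0.74 ± 0.18 (adjusted p = 0.0637 by edgeR and 0.00551 by DESeq2).

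Col4a3, the α3 chain of the minor collagen IV network, stood at 333, 387, 295 and 347 CPM in LEGSKO+BSO fibers, 394, 259, 348 and 348 in LEGSKO fibers and 517, 508, 433 and 463 in WT fibers. Every WT library was above every library of the other groups. The log2 fold change over WT was -0.50 ± 0.12 in LEGSKO+BSO (adjusted p = 0.0242) and -0.51 ± 0.12 in LEGSKO (adjusted p = 0.0404). The LEGSKO+BSO call was lost without LEGSKO+BSO library 1, 3 or 4 or WT library 2 (highest adjusted p = 0.0868), and the LEGSKO call without LEGSKO library 2, 3 or 4 or WT library 2 or 4 (highest adjusted p = 0.117), while without WT library 1 it was -0.46 in LEGSKO+BSO (adjusted p = 0.0184) and -0.48 in LEGSKO (adjusted p = 0.0217). Col4a4, which shares its start region with Col4a3, stood at 152, 170, 143 and 176, at 177, 107, 160 and 163, and at 220, 200, 191 and 194 CPM in LEGSKO+BSO, LEGSKO and WT fibers. It too had every WT library highest, with -0.33 in LEGSKO+BSO (adjusted p = 0.134) and -0.41 in LEGSKO (adjusted p = 0.116). The 2 gene bodies overlap by 114 bases.

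The other chains gave smaller or less even differences. Col4a1 stood at 806, 830, 706 and 897 CPM in LEGSKO+BSO fibers, 892, 675, 769 and 769 in LEGSKO fibers and 1368, 975, 953 and 877 in WT fibers (-0.37 and -0.43, adjusted p = 0.115 and 0.121). Col4a2 was at 328, 329, 296 and 378, at 356, 254, 286 and 308, and at 493, 382, 393 and 357 CPM in LEGSKO+BSO, LEGSKO and WT fibers (-0.29 and -0.43, adjusted p = 0.163 and 0.0797). WT library 1 was the highest of all 12 for both genes. Without it Col4a1 was -0.21 in LEGSKO+BSO and -0.28 in LEGSKO (adjusted p = 0.182 and 0.101), and Col4a2 -0.18 and -0.33 (adjusted p = 0.29 and 0.0619). Col4a5 was at 158, 158, 137 and 167, at 165, 140, 162 and 159, and at 240, 168, 145 and 155 CPM (-0.19 and -0.18), and Col4a6 at 108, 99.4, 91.4 and 115, at 106, 88.5, 111 and 113, and at 140, 108, 87.9 and 94.4 CPM (-0.05 and -0.04). WT library 1 was also the highest of all 12 for Col4a5 and Col4a6. The other WT libraries, at 145 to 168 and 87.9 to 108 CPM, overlapped both LEGSKO conditions. With all libraries the 6 chains were below 0 in both comparisons, with a median of -0.31 in LEGSKO+BSO and -0.42 in LEGSKO. For Col4a5 and Col4a6 that direction rests on WT library 1. In each comparison edgeR called 1 of 6, Col4a3. DESeq2 called Col4a3 alone for LEGSKO+BSO and 4 chains for LEGSKO, namely Col4a1, Col4a2, Col4a3 and Col4a4 (adjusted p = 0.0308, 0.0119, 0.0013 and 0.0363), and edgeR with no filter also called Col4a2 (0.0491) for LEGSKO. Of all 13436 genes DESeq2 called 1172 for LEGSKO+BSO and 514 for LEGSKO.

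Itgb1, the β1 integrin chain through which fiber cells bind laminin, stood at 194, 211, 187 and 198 CPM in LEGSKO+BSO fibers, 223, 197, 217 and 209 in LEGSKO fibers and 301, 260, 222 and 232 in WT fibers. All LEGSKO+BSO libraries were below all WT libraries, and LEGSKO lay between and touched both. The log2 fold change over WT was -0.36 ± 0.09 in LEGSKO+BSO (1.29-fold lower, adjusted p = 0.0292) and -0.26 in LEGSKO (adjusted p = 0.167). The first was lost without LEGSKO+BSO library 1, 3 or 4 or WT library 2 (highest adjusted p = 0.0949), and it was -0.27 (adjusted p = 0.0224) without WT library 1. Itga6, its α partner, averaged 610 ± 26.6, 590 ± 57.2 and 604 ± 44.2 CPM in LEGSKO+BSO, LEGSKO and WT fibers (0.01 and -0.03).

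Lamb3 was also higher in LEGSKO+BSO than in WT fibers, at much lower levels than in epithelia. It stood at 0.552, 0.497, 0.804 and 1.46 CPM in LEGSKO+BSO fibers, 0.619, 0.903, 0.596 and 0.302 CPM in LEGSKO fibers and 0.111, 0.252, 0.15 and 0.0679 CPM in WT fibers, from 147, 59 and 16 counts in all. Every WT library was below every other library. The log2 fold change over WT was 2.44 ± 0.50 in LEGSKO+BSO (5.41-fold, adjusted p = 0.0141) and 1.99 ± 0.53 in LEGSKO (adjusted p = 0.0795). The LEGSKO+BSO call held with each library left out (2.02 to 2.89, highest adjusted p = 0.044), with 2.35 (adjusted p = 0.0141) without WT library 1. DESeq2 called Lamb3 in LEGSKO fibers too (2.02, adjusted p = 0.0214), and the difference between tissues was 1.32 ± 0.49 (adjusted p = 0.233). The summed corneal and conjunctival markers were 13.8 to 68.9, 14 to 35.3 and 10 to 30.8 CPM in LEGSKO+BSO, LEGSKO and WT fibers, and immune markers 3.57 to 4.69, 0.774 to 1.21 and 0.787 to 1.26 CPM with Lyz2 higher in LEGSKO+BSO (2.75 over WT, adjusted p = 6.94e-05). Their part in the fiber results was not tested.

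**Figure D4:**
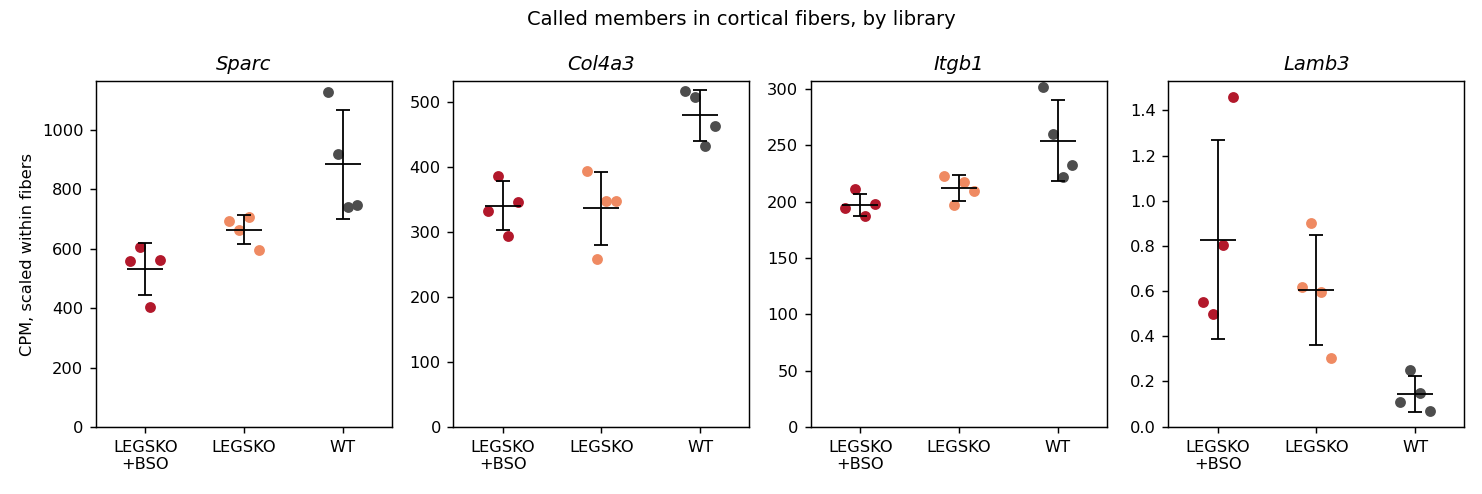
Sparc, Col4a3, Itgb1 and Lamb3 in CPM scaled within fibers, one point per library, with the mean and SD of 4 for LEGSKO+BSO, LEGSKO and WT. WT points lie highest for Sparc and Col4a3 and lowest for Lamb3, and WT library 1 is the highest point for Sparc, Col4a3 and Itgb1.

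Of the linking molecules in fibers, Hspg2 stood at 371, 444, 372 and 420 CPM in LEGSKO+BSO fibers, 404, 250, 358 and 371 in LEGSKO fibers and 509, 498, 452 and 486 in WT fibers. Every WT library was highest, with -0.27 in LEGSKO+BSO (adjusted p = 0.193) and -0.49 ± 0.12 in LEGSKO (adjusted p = 0.0509) by edgeR. The LEGSKO difference was called by DESeq2 (adjusted p = 0.00315), with RLE scaling (0.049), in the fit of 24 libraries (0.0461), with no filter (0.0246), without WT library 1 (0.0281) and without LEGSKO library 1 (0.039). Nid1 stood at 1008, 1066, 985 and 1036, at 1097, 893, 997 and 1027, and at 1306, 1080, 998 and 1014 CPM in LEGSKO+BSO, LEGSKO and WT fibers, and Agrn at 1.54, 1.86, 0.514 and 3.17, at 2.32, 1.76, 1.19 and 4.15, and at 2.17, 3.31, 3.45 and 2.31 CPM. Both overlapped between all groups.

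The laminins of the capsule overlapped too. Lama1 stood at 53, 47.5, 52.2 and 50.5 CPM in LEGSKO+BSO fibers, 48.7, 39.6, 49.7 and 49.8 in LEGSKO fibers and 54.3, 50.1, 49.7 and 52.2 in WT fibers. Lamb1 stood at 48.8, 48.5, 45 and 49.3, at 52.6, 42.5, 55.9 and 54.3, and at 71.8, 44.4, 40.7 and 44.3 CPM, and Lamc1 at 37.2, 35.7, 35.5 and 41.6, at 36.1, 27.1, 33.5 and 30.1, and at 38.1, 40.9, 36.7 and 35.7 CPM in LEGSKO+BSO, LEGSKO and WT fibers. Adjusted p was 0.177 or more for these 3 chains. Bgn was at 1.93, 2.34, 2.77 and 1.85, at 2.71, 3.83, 3.14 and 2.25, and at 47.3, 2.08, 3.3 and 1.73 CPM, and its log2 difference of -2.55 for LEGSKO+BSO over WT (adjusted p = 0.0856) was -0.08 without WT library 1 (adjusted p = 0.881). Timp2 for LEGSKO over WT, named after its values were seen, was -0.26 (adjusted p = 0.0538 by edgeR and 0.000857 by DESeq2), with no overlap.

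**Figure D5:**
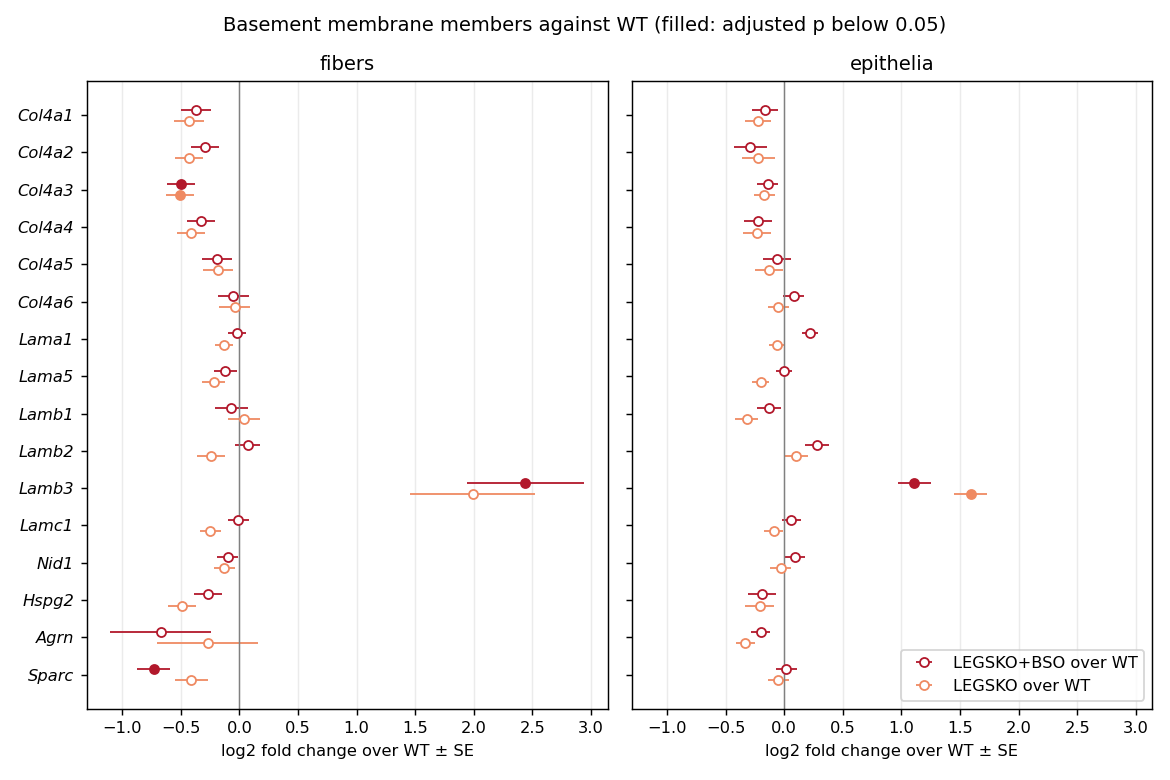
Log2 fold change over WT with its SE for 16 basement membrane members, in fibers (left) and epithelia (right), for LEGSKO+BSO and LEGSKO. Filled points passed the threshold: Lamb3 in both epithelial comparisons, Col4a3 in both fiber comparisons, and Lamb3 and Sparc in LEGSKO+BSO fibers.

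An interaction term in the fit of 24 libraries tested whether a response differed between the tissues. By edgeR 0 of 41 members were called for LEGSKO+BSO over WT (0.276% of all genes), 0 for LEGSKO over WT (0.103%) and 0 for LEGSKO+BSO over LEGSKO (0.0321%). At an unadjusted p under 0.05 there were 10, 6 and 3 members, against 2121, 1410 and 1645 of all 15560 genes. DESeq2 called 1, 0 and 0 members, the 1 being Sparc, against 293, 83 and 55 of all genes. A difference between fibers and epithelia in the response of these genes was thus not shown by edgeR, and the fiber changes of Sparc, Col4a3, Itgb1 and Lamb3 are not shown to be particular to fibers.

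A list of 111 other matrix genes was counted in the same way. In epithelia 1 of 96 tested was higher in LEGSKO+BSO than in WT and 1 higher in LEGSKO+BSO than in LEGSKO, in both cases Tgfbi, an adhesion protein known from the cornea (7.55 ± 4.28, 0.989 ± 0.174 and 2.1 ± 1.15 CPM in LEGSKO+BSO, LEGSKO and WT), where 1.17% and 0.722% of all genes were called. In fibers 4 of 66 were higher and 5 lower in LEGSKO+BSO than in WT (5.52% of all genes were called), and 1 was higher in LEGSKO (1.64%). Frem1, which encodes a basement membrane protein of the Fraser complex, stood at 3.7, 5.01, 2.77 and 4.1, at 3.91, 3.22, 4.65 and 4.45, and at 1.45, 1.67, 1.05 and 1.32 CPM in LEGSKO+BSO, LEGSKO and WT fibers (2.83-fold and 2.95-fold higher than WT, adjusted p = 0.00119 and 0.00176). Its partner Frem2 averaged 82.4 ± 2.84, 62.9 ± 10.9 and 53.6 ± 8.49 CPM (0.62 in LEGSKO+BSO, adjusted p = 0.0109), and Ltbp1, a latent TGF-β binding protein, was 38.3 ± 1.51 in LEGSKO+BSO and 29.5 ± 1.24 in WT fibers (0.38, adjusted p = 0.00345). In both LEGSKO conditions every Frem1 value was above every WT value.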

How the data were processed

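RNA sequencing of 24 libraries gave, per the submitters' processing notes (which name CASAVA 1.8, bcl2fastq, TopHat, DESeq and the builds mm10 and GRCm38, with no role or order), one table of raw counts per gene, deposited with Entrez identifiers. The sources used here name no counter, annotation or strand setting, so reads of overlapping genes cannot be told apart. Of the 24415 identifiers, 24334 were matched to RefSeq symbols, and the 81 others, with 0.914% of the counts, kept their identifiers. No column was left unmapped.

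Counts were analysed as deposited with edgeR 4.0.16 in R 4.3.3 (quasi-likelihood test, TMM scaling, genes kept by filterByExpr, set to 10 counts per library and 15 in total). Each tissue was fitted alone over its 12 libraries for comparisons of conditions, and both tissues together for fibers over epithelia and for interactions. P-values were adjusted over all genes tested by the Benjamini-Hochberg method with a threshold of 0.05, and the ± of a log2 fold change is its SE. Common biological variation between libraries (edgeR's coefficient) came to 12.8% for fibers, 14.2% for epithelia and 13.7% for the joint fit. Levels per kb use the longest protein-coding GENCODE basic transcript of the same build. The scripts were tested on simulated data.

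Members and lists were chosen with earlier results of these data known. Values in every library are given for members called within a tissue or in an interaction and for the main capsule genes, and otherwise for the 4 highest and 4 lowest fold changes between tissues in WT. From the other lists at most 3 called genes with the smallest adjusted p per comparison are named; genes outside these rules are said to be so. No library pair was a duplicate: chi-square per degree of freedom between libraries of a group was 5.43 to 369. Not every same-numbered pair of libraries deviated together, so the numbers were not taken as pairs. Alternatives were DESeq2 1.42.0, RLE scaling, no filter, a replicate block, a fit of 24 libraries, crystallins left out, each library left out, and, added after seeing the data, 4 epithelial libraries over 40 CPM in ciliary body and vitreous markers left out and another transcript length.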

Additional observations from a re-analysis of the deposited data

Results flagged for a closer look

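In 15 of 119 groups of 4 libraries checked among the members described by library, 1 library lay far from the other 3: its gap to the nearest, as a share of the whole range, was above Dixon's 95% limit. Chance gives about 1 such group in 20. Values are in CPM scaled within a tissue.

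LEGSKO+BSO epithelial library 4, the deepest epithelial library, was highest for 6 of these genes. It stood at 15637 for Col4a1, 6783 for Col4a2, 1142 for Col4a4, 1182 for Col4a5, 347 for Lamc1 and 7713 for Sparc. LEGSKO+BSO epithelial library 2 was lowest for Col1a2, at 54.2 against 92.6 to 99.6 in the other 3.

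LEGSKO epithelial library 2 was highest for Col4a5 at 1166 and Col4a6 at 853, and LEGSKO epithelial library 3 for Col1a1 at 4.84, against 1.22 to 1.8. LEGSKO fiber library 2 was lowest for Lama1 at 39.6, against 48.7 to 49.8. WT fiber library 1 was highest for Bgn at 47.3, against 1.73 to 3.3, and for Lamb1 at 71.8, against 40.7 to 44.4. WT epithelial library 1 was highest for Col4a2 at 9275 and Col4a5 at 1508.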

How the results depend on the processing

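No result that was put through the alternatives reversed under any of them, and Col4a5 and Col4a6 in fibers were not among these results. Counts of members called changed by more than 1.5 times as follows. DESeq2 called 7 for LEGSKO over WT epithelia, 5 for LEGSKO+BSO over LEGSKO epithelia, 7 for LEGSKO over WT fibers and 1 for the LEGSKO+BSO over WT interaction, against 2, 1, 1 and 0 by edgeR. For LEGSKO over WT fibers RLE scaling and no filter gave 3 each and the fit of 24 libraries gave 4. That fit gave 0 for LEGSKO+BSO over LEGSKO epithelia. With the replicate number as a block the counts were 4 for LEGSKO over WT epithelia, 0 for LEGSKO+BSO over LEGSKO epithelia and 0 for LEGSKO over WT fibers, and the other 9 comparisons kept their counts. Same-numbered libraries correlated in their deviations at -0.27 to 0.35 in epithelia, -0.27 to 0.20 in fibers and -0.29 to 0.40 across tissues, with all 4 WT pairs and all 4 LEGSKO+BSO pairs positive across tissues. Other pairs were negative, so the numbers were not treated as pairing the libraries. Leaving out 1 library gave 1 to 3 members for LEGSKO over WT epithelia, 1 to 2 for LEGSKO+BSO over WT epithelia, 0 to 3 for LEGSKO+BSO over LEGSKO epithelia, 0 to 4 for LEGSKO over WT fibers, 2 to 5 for LEGSKO+BSO over WT fibers and 0 for LEGSKO+BSO over LEGSKO fibers. Between tissues the counts were 40 to 41 in LEGSKO+BSO, 38 to 40 in LEGSKO and 40 in WT lenses. Without the 4 libraries high in ciliary body and vitreous markers they were 42, 41 and 39, and the counts within epithelia were 2, 2 and 1 for LEGSKO+BSO over WT, LEGSKO over WT and LEGSKO+BSO over LEGSKO. Over all genes DESeq2 called 1172, 514 and 80 in fibers (LEGSKO+BSO over WT, LEGSKO over WT, LEGSKO+BSO over LEGSKO), against 742, 220 and 4 by edgeR, and 580, 463 and 680 in epithelia, against 177, 127 and 109. It called 293, 83 and 55 for the interactions in the same order, against 43, 16 and 5. Leaving out 1 library gave 285 to 1075, 61 to 591 and 1 to 7 in fibers, 41 to 324, 40 to 183 and 0 to 442 in epithelia, and 12 to 94, 4 to 46 and 1 to 8 for the interactions. Without the 4 libraries high in ciliary body and vitreous markers the counts were 161, 55 and 418 in epithelia and 11, 4 and 5 for the interactions. Of LEGSKO+BSO over LEGSKO, the block gave 46 in epithelia, 2 in fibers and 0 for the interaction, no filter gave 14 in fibers and 1 for the interaction, RLE scaling gave 2 for the interaction, and the fit of 24 gave 250 in epithelia and 7 in fibers. The block gave 143 for LEGSKO over WT fibers. The cause of these shifts was not tested. Among single genes 335 alternatives left the result called or not called as in the main fit, 36 lost a call and 26 gained one. A further 6 moved, the Col4a1 to Col4a2 ratio of each group with the union of exons as length. In WT fibers Lamb3 rests on 16 counts, Col1a2 on 14, Gpc5 on 8, Col9a1 on 4 and Lox on 3.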
